A study of Solanum tuberosum with 72 samples.

Results

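The set described here holds 205 array spots that had a strongly negative log2 change in potato roots after 27 h of cold and also after 27 h of heat. A change is the mean log2 ratio of the 3 stress arrays less that of the 3 matching control arrays, as deposited. The spots were chosen by these measured changes. A spot entered where it had at least 2 values in all 24 groups and a change of -1 or lower in both root comparisons at 27 h. This held for 205 of 13585 eligible spots (1.51%) and of 32448 in the table. The members are 31.9% of the 642 eligible spots at or below -1 in root cold 27 h and 49.2% of the 417 in root heat 27 h. Of all eligible spots, 4.73% and 3.07% reached -1 in these comparisons. Both changes subtract the mean of the same 3 control arrays, so a high control value lowers both. Without control replicates 1, 2 and 3 the rule gave 272, 190 and 164 spots. How much of the overlap comes from the shared controls was not tested.

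The plants were 5-week-old seedlings of potato (Solanum tuberosum, variety Gilroy) grown from true seed on rafts over hydroponic medium at 25 °C. Cold plants were moved to medium at 4 °C and kept on ice, heat plants to medium at 35 °C and kept in a water bath, and salt plants to medium with NaCl, given as 100 mM in one label and 150 mM in another. Control plants had their medium changed in the same way with no stress. Roots and shoots (leaf in the titles) were collected after 3, 9 and 27 h, with 3 arrays for each tissue, time and condition, 72 in all. A sample pooled 6 plants from 2 boxes, the experiment was carried out 3 times independently, and these runs are replicates 1 to 3.

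On each array Cy3 marked the sample and Cy5 a pooled control reference of 6 boxes from the same tissue and time. The labels do not say which dye is the numerator of the ratio, so a negative change can be either more or less RNA under stress, and only the sign of the ratio is given here. No array swapped the dyes, which makes signs comparable across the comparisons. In whole roots or shoots, a change in the number of cells of a type and a change in RNA per cell cannot be told apart.

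Plants sense low and high temperature within minutes. Cold leads to the CBF transcription factors and their cold-regulated targets, and heat leads to heat-shock factors that turn on chaperones, while salt acts through osmotic stress, abscisic acid and sodium transport. Stresses of different kinds also share a part of their response, in which growth and photosynthesis genes and stress-protection genes move in opposite directions.

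In the contrasts that chose them, the members had a median change of -1.50 in root cold 27 h (lowest -3.10) and of -1.39 in root heat 27 h (lowest -3.78). The limma test called 202 of the 205 negative in cold and 203 in heat, where 19.2% and 10.1% of all tested spots were called negative and 19.3% and 9.19% positive. These counts follow from the choice and carry no further weight. Just inside the threshold, spot 162528 had changes of -1 in cold and -1.126 in heat, spot 136697 had -1.765 and -1.0037, and spot 146106 had -1.351 and -1.0047. Just outside it, spot 155497 had -0.9973 in cold and -1.0143 in heat, spot 141399 had -0.9943 and -1.9347, and spot 138845 had -1.162 and -0.994.

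Most probes were printed as 2 spots, a layout inferred from the row spacing. Both spots of 81 probes were members, which makes 162 of the 205. The other 43 members were alone. For 18 of them the partner had too few values, and for 25 the partner was eligible but its weaker change lay between -0.99 and -0.13, with a median of -0.92. The members therefore stand for 124 printed probes. They lay in all 12 blocks of the table, at 0.761% to 2.15% of the eligible spots of a block.

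Spot 162696 had the lowest weaker change of all members with a member partner (spot 161852). Its log2 ratios in root at 27 h were -2.56, -2.94 and -1.84 on the cold arrays of replicates 1 to 3, -3.47, -1.56 and -1.51 on the heat arrays, and -0.25, 0.36 and 0.21 on the control arrays. Every cold and heat array lay below every control array, which largely follows from the choice, since these arrays chose the spot. At 3 h its ratios were -2.18, -3.18 and -2.84 on the cold arrays and 0.04, 0.11 and -0.22 on the control arrays. The limma change was -2.71 ± 0.37 (SE, adjusted p = 5.1e-06). At 9 h it was -2.92 ± 0.37 (adjusted p = 4.9e-07), whereas heat gave -0.54 at 3 h and -0.77 at 9 h, neither past the threshold (adjusted p = 0.404 and 0.239). Outside the 27 h values that chose it, the spot was strongly negative at 3 and 9 h of root cold. It was called at neither of these times in root heat. Its leaf cold changes were smaller and also called, at -1.41, -1.41 and -1.30 after 3, 9 and 27 h (adjusted p = 0.000613, 0.000351 and 0.00277).

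Spot 140349, next by the same measure, had ratios at 27 h of -3.06, -2.40 and -1.79 in cold roots, -3.18, -1.18 and -0.53 in heated roots and 0.24, 0.53 and 0.63 in control roots. Here the 3 heat arrays lay far apart and still below all control arrays. That order, too, largely follows from the choice. Root cold was called at 3 h (change -1.46 ± 0.40, adjusted p = 0.0142) and 9 h (-1.96 ± 0.40, adjusted p = 0.00043).

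The 3 heat arrays at 27 h did not contribute equally. Against the mean of the control arrays, the members' median was -2.28 on replicate 1, -1.02 on replicate 2 and -0.97 on replicate 3. All members with a value were below 0 on each of these arrays, but 203 of 204 reached -1 on replicate 1, 105 of 203 on replicate 2 and 94 of 204 on replicate 3. Only 61 members reached -1 on all 3 arrays. Replicate 1 was the lowest of the 3 heat arrays for 194 of the 201 members with all values.

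This array was also the widest over all eligible spots. The SD of its difference to the control mean was 0.716, against 0.458 on replicate 2 and 0.416 on replicate 3, and 7.81%, 2.40% and 1.58% of eligible spots reached -1. Without root heat 27 h replicate 1, 94 of the 205 members remained at or below -1, and the rule gave 98 spots in place of 205. Leaving out heat replicate 2 or 3 instead kept 199 or 204 of them. The root cold arrays at 27 h were more alike, with member medians of -1.77, -1.67 and -1.25. Whether the width of that heat array had a part in these values was not tested.

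Replicate 1 was also the lowest of the heat arrays at the other times. With each heat array set against the control array of its own number, the members' medians for replicates 1 to 3 were -0.96, -0.35 and 0.07 in root at 3 h, -0.81, -0.28 and -0.04 at 9 h, and -1.96, -1.09 and -1.20 at 27 h. In leaf they were -0.47, -0.26 and -0.24 at 3 h, -0.62, -0.13 and -0.02 at 9 h, and -0.68, -0.22 and -0.56 at 27 h. Replicate 1 gave the lowest value for 178 of 201 members in root at 3 h, 172 of 196 at 9 h and 169 of 201 at 27 h. In leaf these counts were 118 of 196, 155 of 200 and 112 of 199. In root at 3 and 9 h, which the choice did not use, replicate 3 lay near 0. All 3 arrays of heated root at 27 h were far below 0. Their level follows from the choice, so it cannot be set against the earlier times.

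**Figure D1:**
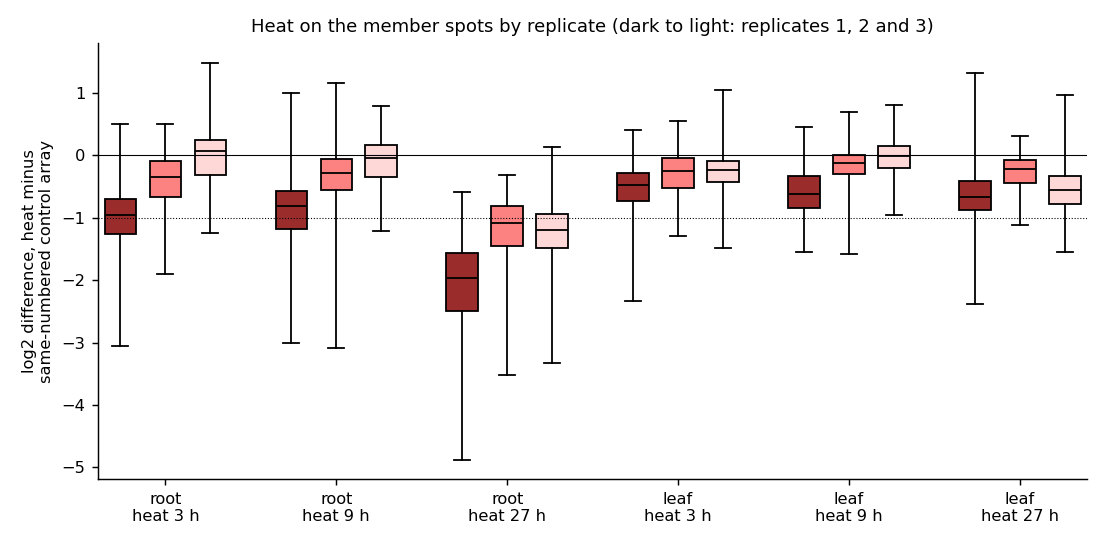
Log2 difference between each heat array and the control array of the same number for the 205 spots, by tissue and time. Boxes give the quartiles with the median, whiskers the full range, and the dotted line marks -1. Replicate 1 has the lowest median of the 3 in all 6 heat comparisons, at -1.96 in root at 27 h. Root heat and control arrays at 27 h were used to choose the spots.

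On single arrays, the median ratio of the members after 27 h was -1.60, -1.58 and -1.09 in cold roots, -2.18, -0.84 and -0.82 in heated roots, -0.28, -0.27 and -0.27 in salt-treated roots, and -0.20, 0.23 and 0.33 in control roots. Cold and heat arrays lay below all control arrays, and salt arrays were just below the lowest of them. The cold, heat and control arrays chose the spots, so their order follows from the choice. The salt values are set against those same controls. The medians over all eligible spots lay within 0.03 of 0 on each of the 72 arrays.

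**Figure D2:**
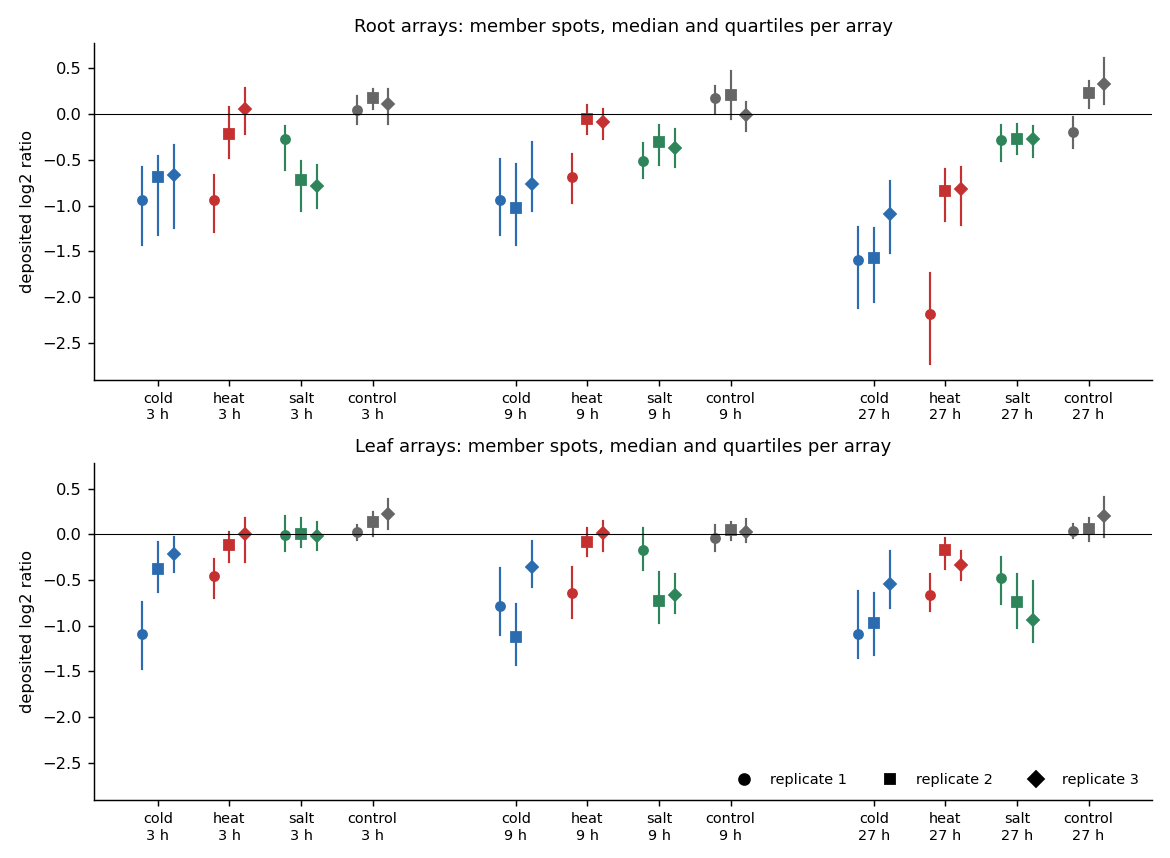
Median (points) and quartiles (bars) of the deposited log2 ratio over the 205 spots on each of the 72 arrays, for root above and leaf below, with replicates 1 to 3 as circles, squares and diamonds. Root cold arrays lie below the control arrays at each time, and root heat replicate 1 is the lowest of the root arrays at 27 h with a median of -2.18. The root cold, heat and control arrays at 27 h were used to choose the spots.

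The earlier cold roots, which the choice did not use, show which spots already differed before 27 h. At 3 h the members' median ratio was -0.94, -0.69 and -0.67 on the cold arrays and 0.04, 0.18 and 0.11 on the control arrays, with no overlap of these medians. Of the 205 members 203 had a change below 0 and 71 reached -1, with a median change of -0.80. Over all eligible spots 47.1% were below 0 and 2.45% reached -1. The limma test called 86 members negative and none positive, where 6.72% of the 14866 tested spots were called negative and 5.79% positive. At 9 h the array medians were -0.94, -1.03 and -0.76 in cold roots and 0.18, 0.21 and -0.01 in control roots. The median change was -1.02 and 192 members were below 0, against 51.9% of all eligible spots. The test called 133 members negative and none positive, where 11.9% of all tested spots were called negative and 13.7% positive.

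Of the 205 members, 57 were called negative at both 3 and 9 h, 29 at 3 h alone, 76 at 9 h alone and 43 at neither. Over all eligible spots the shares were 2.21%, 4.58%, 9.94% and 83.3%, and over the members 27.8%, 14.1%, 37.1% and 21%. The test of the difference between the changes at 9 h and 3 h called 26 members positive, that is, less negative at 9 h, where 8.47% of all tested spots were called positive. It called 3 members negative, where the share over all tested spots was 4.59%. These 3 were spots 148730 (-3.64), 157262 (-2.16) and 158391 (-0.94), and the calls of the last 2 were each lost without any 1 of 8 or more of the 12 arrays. The total of 29 became 18 without root cold 9 h replicate 3 and 10 after quantile scaling. Those 10 were 9 positive (4.39% of the members, against 4.03% of all tested spots) and 1 negative (0.488%, against 2.79%), so the positive share was then close to the background.

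Spot 152504 was negative early and not at 9 h. At 3 h its ratios were -2.84, -3.64 and -3.84 in cold roots and -0.06, 0.15 and 0.30 in control roots. At 9 h they were -0.34, -0.06 and 0.29 in cold roots and 0.29, 0.26 and 0.04 in control roots, so the groups were apart at 3 h and overlapped at 9 h. The change was -3.57 ± 0.30 at 3 h (adjusted p = 7.36e-10) and -0.23 ± 0.30 at 9 h (adjusted p = 0.62), and the difference of 3.33 ± 0.42 was called (adjusted p = 1.72e-06).

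The opposite order was seen at spot 148730. Its ratios at 3 h were 1.47, 0.11 and 0.33 in cold roots and 0.16, 0.31 and -0.81 in control roots, and the groups overlapped. At 9 h they were -2.47, -3.18 and -2.25 in cold roots and 1.23, -0.38 and -0.10 in control roots, with no overlap. The change was 0.75 ± 0.54 at 3 h (adjusted p = 0.404) and -2.89 ± 0.54 at 9 h (adjusted p = 0.000141). Its printed partner was not a member, and the 3 control arrays of this spot lay far apart at 9 h.

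Heated roots gave far fewer early calls. The members' median ratio at 3 h was -0.94, -0.22 and 0.06 on the heat arrays and 0.04, 0.18 and 0.11 on the control arrays, so that 1 of the 3 heat arrays lay among the controls. At 9 h the medians were -0.69, -0.06 and -0.09 on heat arrays and 0.18, 0.21 and -0.01 on control arrays. The median change was -0.42 at 3 h, with 187 members below 0, and -0.40 at 9 h, with 188 below 0. Of the members, 14 were called negative at 3 h and 5 at 9 h, and none positive, where 3.24% and 2.07% of all tested spots were called negative and 3.73% and 3.67% positive. The 5 at 9 h (spots 138395, 137551, 134145, 144643 and 142784) are 2.4% of the members, close to that background.

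These root heat counts moved with the setting and with single arrays. With the replicate number as a block, 29 members were called at 3 h and 12 at 9 h, against 3.95% and 2.47% of all tested spots. Quantile scaling gave 35 negative at 3 h, and 51 negative and 3 positive at 9 h, where it also raised the negative calls over all tested spots to 6.05% and 7.1%. The count at 3 h was 5, 8 and 27 without heat replicates 1, 2 and 3, and 6, 8 and 8 without control replicates 1, 2 and 3. The 9 h count fell to 0 on dropping heat replicate 1 or control replicate 2, and to 1 on dropping control replicate 1. The difference between 9 h and 3 h of heat was called by limma for none of the 205 members, with 4 at an unadjusted p under 0.05. Of all tested spots 0.00673% were called in the negative and 0% in the positive direction. The unadjusted count was not made over all tested spots.

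The most negative change called in root heat 3 h was at spot 154068, a member together with its partner 153224. After 3 h its ratios were -2.183, -1.321 and -0.999 in heated roots and 0.26, 0.38 and 0.25 in control roots, and all heat arrays lay below all controls. The change was -1.80 ± 0.34 (adjusted p = 0.0016). In leaf after 3 h of heat the ratios were -1.36, -0.81 and -1.25, against 0.08, 0.08 and 0.23 in control leaves, a change of -1.27 ± 0.27 (adjusted p = 0.0192), a call lost without heat replicate 1 or 3 or any of the control arrays. Among the 5 spots called at 9 h, spot 138395 had the most negative change (-1.21 ± 0.33, adjusted p = 0.0252). Its ratios were -0.89, -0.10 and -0.43 in heated roots and 0.86, 0.95 and 0.38 in control roots. That call was lost without heat replicate 1 or 3 or control replicate 1 or 2.

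Cold was also set directly against heat in root at each early time, which needs no control array. At 3 h the ratio was lower in cold than in heat for 44 members and higher for 1 (spot 151861, 0.70, adjusted p = 0.05, lost without any of the 6 arrays), where 7.33% and 6.21% of all tested spots were called. At 9 h it was lower in cold for 76 members and higher for 2, spots 153224 (0.73) and 144700 (1.15), where 18% and 17.6% of all tested spots were called. Spot 144702 had the largest difference at 3 h, with ratios of -3.84, -3.64 and -3.64 in cold roots and -0.64, 0.54 and 0.51 in heated roots, a difference of -3.84 ± 0.46 (adjusted p = 8.04e-07). The 45 calls at 3 h became 70 without heat replicate 1. The 78 calls at 9 h became 47 without cold replicate 2, and 42 and 41 without heat replicates 2 and 3.

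**Figure D3:**
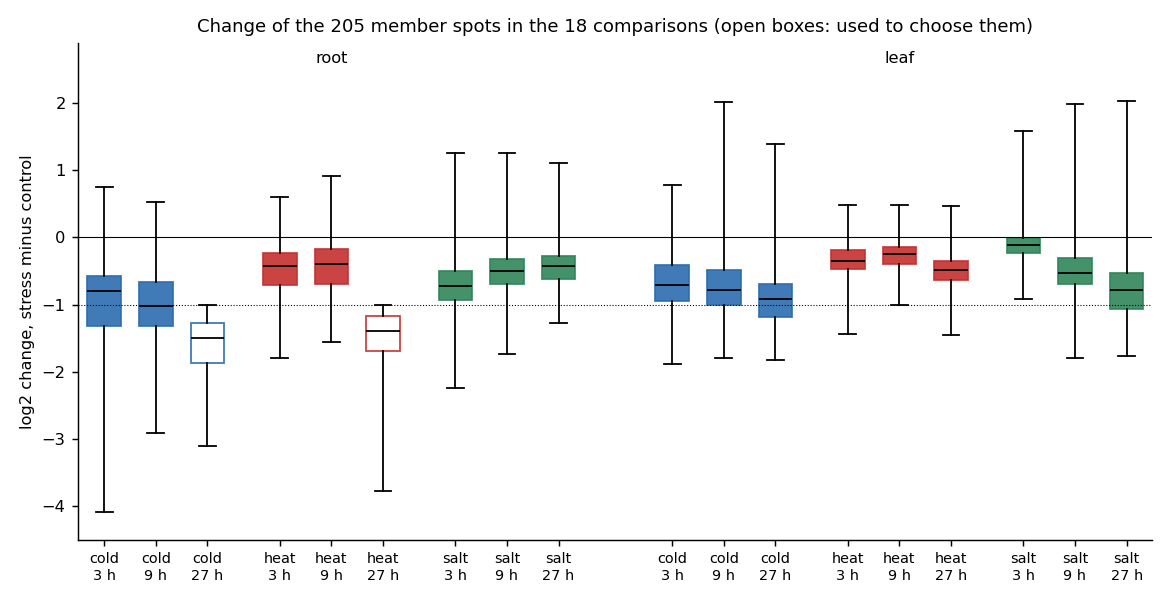
Log2 change (mean of stress arrays minus mean of control arrays) of the 205 spots in the 18 comparisons, with boxes for quartiles and median and whiskers for the full range. Open boxes are the 2 comparisons that chose the spots and the dotted line is -1. Medians are negative in all 18 comparisons and, outside the open boxes, lowest in root cold 9 h at -1.02.

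Within the set, 35 spots of 21 probes had a change of -2 or lower already at 3 h of root cold. This subset was drawn after its values were seen and gets no test. Its median change was -2.77 at 3 h, -1.36 at 9 h and -1.61 at 27 h in cold roots, against -0.72, -0.998 and -1.49 for the other 170 members. In heated roots at 27 h its median was -2.21, and -1.34 for the others. On the 3 heat arrays at 27 h the subset's medians were -3.29, -1.67 and -1.47, and 23 of its 35 spots reached -1 on all 3 arrays. Without heat replicate 1, 26 of the 35 remained at or below -1, and 68 of the other 170.

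Across the 205 members, the change at 3 h of cold and that at 27 h of heat had a Pearson r of 0.71 and a Spearman rho of 0.40. Over all 13585 eligible spots these were 0.39 and 0.31. The heat values at 27 h chose the members and end at -1, and duplicate spots count as separate points, so the values describe the set and support nothing. With the single heat arrays in place of their mean, r was 0.59, 0.55 and 0.68 for replicates 1 to 3, and rho was 0.43, 0.18 and 0.41. On replicate 2 the rank relation was weak. Leaf heat against root heat, both after 27 h, gave r = 0.64 and rho = 0.50, against 0.63 and 0.59 over all eligible spots. Of all eligible spots, 92 were at or below -2 in root cold 3 h, 52 in root heat 27 h, and 26 in both, which is 28.3% of the first list and 50% of the second. Members made up 21 of those 26.

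**Figure D4:**
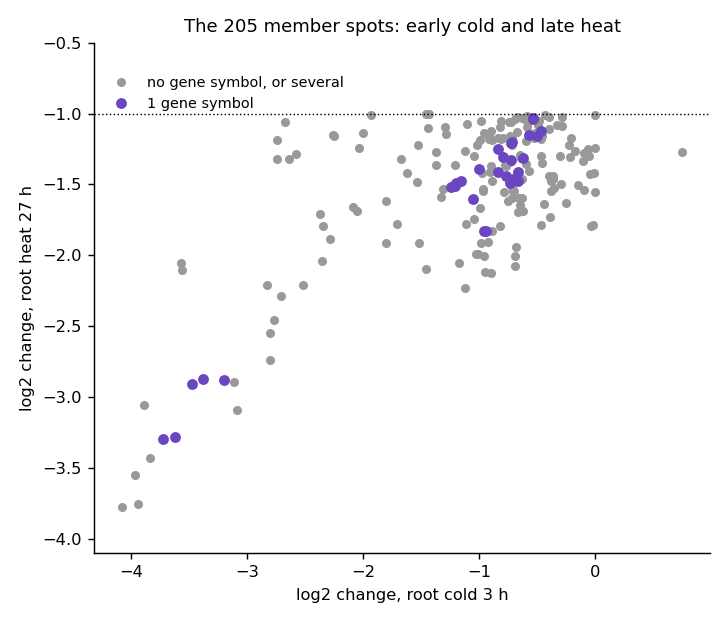
Log2 change after 3 h of cold (x) and 27 h of heat (y) in root for each of the 205 spots, with spots of 1 annotated gene in purple. The dotted line is the -1 limit of the choice. The spots at lower left reach down to -4.08 in cold and -3.78 in heat.

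Spot 150394, with its member partner 151238, had the lowest early cold change. At 3 h its ratios were -3.64, -4.32 and -3.84 in cold roots and 0.11, 0.07 and 0.26 in control roots. After 27 h of heat they were -5.06, -3.06 and -2.84, against -0.18, 0.19 and 0.37 in control roots. Each heat array lay far below the controls, but these arrays had a part in choosing the spot. The cold change was -4.08 ± 0.49 at 3 h (adjusted p = 9.2e-07) and -1.38 ± 0.49 at 9 h (adjusted p = 0.0387). At 3 and 9 h of heat it was -0.86 and -1.27, not past the threshold (adjusted p = 0.317 and 0.134).

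Salt was the remaining stress applied to root. At 3 h the members' median ratio was -0.27, -0.72 and -0.79 on the salt arrays and 0.04, 0.18 and 0.11 on the control arrays, with all salt arrays below the controls. The median change was -0.73, and 65 members were called negative and 4 positive (spots 141033, 141877, 144700 and 145544), where 9.06% and 11.9% of all tested spots were called. The 69 calls became 38 and 45 without salt replicates 2 and 3, and 44 without control replicate 2. At 9 h the median change was -0.50, with 4 members called negative (spots 157262, 163017, 148664 and 162528) and 2 positive (spots 141033 and 141877), where 1.37% and 2.96% of all tested spots were called. That total of 6 became 2 without salt replicate 3. After quantile scaling it was 36 negative and 2 positive, where 3.41% and 5.52% of all tested spots were called. At 27 h, whose controls were used in the choice, the median was -0.42 and 3 members reached -1 (1.46%, against 0.552% of all eligible spots). This is given without a test.

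The difference between 9 h and 3 h of salt was called for 2 members, both less negative at 9 h, where 0.565% of all tested spots were called positive and 0.552% negative. One was spot 151101, whose ratios were -2.06, -2.18 and -2.40 in salt-treated roots and -0.07, 0.19 and -0.10 in control roots at 3 h. At 9 h they were -0.79, -0.71 and -0.62 in salt-treated roots and -0.23, -0.22 and -0.25 in control roots. The groups did not overlap at either time, and the change was -2.22 ± 0.23 at 3 h (adjusted p = 1.27e-07) and -0.47 ± 0.23 at 9 h (adjusted p = 0.285). The other was spot 137994 (difference 1.06 ± 0.25, adjusted p = 0.0375), whose call was lost without salt 3 h replicate 1 or 2, salt 9 h replicate 3, control 3 h replicate 2 or 3, or control 9 h replicate 1 or 2.

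In leaf, members were called in cold at every time. The median change was -0.70, -0.78 and -0.91 after 3, 9 and 27 h, with 192, 176 and 188 members below 0. Over all eligible spots 49.9%, 49.3% and 48.7% were below 0. At 3 h 90 members were called negative and 3 positive, where 6.85% and 9.17% of all 15601 tested spots were called. At 9 h these counts were 113 and 6, against 10.7% and 11.8%, and at 27 h they were 142 and 6, against 10.7% and 10.8%. Of the 205 members, 66 were called negative at all 3 times (32.2%, against 2.93% of all eligible spots) and 157 at 1 time or more (76.6%, against 17.5%).

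Single arrays mattered for these leaf counts. The 93 calls at 3 h became 20 without leaf cold replicate 1, whose member median was -1.09, against -0.38 and -0.22 on the other 2 cold arrays. They became 52 and 39 without control replicates 2 and 3. The 119 calls at 9 h became 57 without cold replicate 2, and the 148 at 27 h became 90 without cold replicate 1. Quantile scaling gave 40 negative and 3 positive calls at 9 h, against 3.87% and 4.73% of all tested spots, and 98 negative calls at 27 h, against 5.33%.

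Spot 153805 was among the 3 most negative members at each time of leaf cold. Its ratios were -2.25, -1.51 and -0.79 in cold leaves at 3 h and -0.15, -0.18 and 0.06 in control leaves. At 27 h they were -2.06, -2.25 and -1.32 in cold leaves and 0.00, -0.14 and -0.17 in control leaves. Cold and control arrays did not overlap, and the change was -1.42 ± 0.27 at 3 h (adjusted p = 0.000569) and -1.78 ± 0.27 at 27 h (adjusted p = 3.56e-05).

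Salt gave few calls in leaf at 3 h and more at the later times. The median change was -0.11 at 3 h, -0.53 at 9 h and -0.79 at 27 h. No member was called negative and 2 positive at 3 h (spots 141033 and 141877), where 0.0513% and 0.705% of all tested spots were called. At 9 h 29 were called negative and 7 positive, against 4.19% and 3.81%, and at 27 h 100 negative and 12 positive, against 6.46% and 5.59%. The lowest at 27 h was spot 155101, with ratios of -1.43, -1.60 and -1.84 in salt-treated leaves and 0.12, 0.16 and 0.14 in control leaves (change -1.76 ± 0.23, adjusted p = 3.08e-06). The 36 calls at 9 h became 60, 11 and 17 without salt replicates 1, 2 and 3, and 20 and 17 without control replicates 2 and 3. The 112 at 27 h became 69 without control replicate 3 and 65 without salt replicate 3.

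Leaf heat gave a median change of -0.35, -0.25 and -0.48 after 3, 9 and 27 h. The test called 7, 0 and 6 members negative and none positive, where 0.237%, 0.032% and 0.218% of all tested spots were called negative and 0.378%, 0.135% and 0.41% positive. At 9 h limma gave 13 members at an unadjusted p under 0.05, a count not made over all tested spots. The 7 calls at 3 h became 1 without heat replicate 1 and 2, 1 and 1 without control replicates 1, 2 and 3. The 6 at 27 h became 0, 12 and 3 without heat replicates 1, 2 and 3 and 1, 1 and 0 without control replicates 1, 2 and 3. After quantile scaling the counts were 14, 2 and 37, where 1.6%, 0.673% and 2.13% of all tested spots were called negative and 1.69%, 1.39% and 2.31% positive.

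The 7 leaf spots at 3 h of heat were 3 printed pairs and 1 spot whose partner was not a member. They were 158806 and 160665 (-1.43 and -1.38), 153224 and 154068 (-1.33 and -1.27), 158547 and 160406 (-1.22 and -1.19), and 141104 (-1.04), a spot of LOC102577923. The 6 at 27 h were the pairs 156765 and 157609 of LOC102577434 (-1.27 and -1.22), 148950 and 148106 (-1.25 and -1.23), and 155673 and 156517 (-1.0003 and -0.95). In each pair both spots had nearly the same change.

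The tissues were compared by a test of the change in root minus that in leaf, averaged over 3 and 9 h. In cold, 38 members were more negative in root and 1 less negative (spot 162437, 0.91), where 6.83% and 4.61% of the 13585 spots tested in both tissues were called. In salt, 10 were more negative in root and none less, where 0.662% and 0.847% were called, and this count was 5 without leaf salt 3 h replicate 1. In heat, limma called none of the members, where 0.0147% and 0.0662% of all spots were called negative and positive. An unadjusted p under 0.05 was seen for 12 members and was not counted over all spots.

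Spot 148950, a member with its partner 148106, differed most between the tissues in cold. At 3 h its ratios were -3.64, -4.06 and -3.84 in cold roots and 0.08, 0.08 and 0.20 in control roots. In leaf at 3 h they were -0.43, -0.18 and -0.04 under cold and 0.01, -0.03 and 0.11 in control leaves. The root change was called at 3 h (-3.97 ± 0.43, adjusted p = 1.61e-07) and the leaf change was not (-0.25 ± 0.28, adjusted p = 0.613), and the difference over 3 and 9 h was -2.47 ± 0.38 (adjusted p = 3.85e-06). In salt, spot 151017 differed most among the called spots with 1 sign in all 3 same-numbered differences. Its ratios at 3 h were -2.25, -1.79 and -1.51 in salt-treated roots and 0.25, 0.15 and 0.01 in control roots, and 0.16, -0.07 and -0.17 in salt-treated leaves and 0.15, -0.06 and -0.14 in control leaves. The difference over 3 and 9 h was -1.25 ± 0.27 (adjusted p = 0.00643).

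A small group of members went the other way outside root cold and heat. In at least 1 leaf or root salt comparison, 13 spots of 8 probes were called positive (6.34% of the members, against 28.3% of all eligible spots). In root salt 4 of them, in 2 pairs, were called (1.95%, against 13%). Spot 141033 and its partner 141877 were the most regular. At 9 h spot 141033 had ratios of 1.49, 1.84 and 1.59 in salt-treated roots and 0.14, 1.01 and 0.00 in control roots. In leaf at 27 h the ratios were 2.28, 2.28 and 1.73 under salt and 0.39, 0.19 and 0.15 in control leaves. Its change was 1.26 ± 0.27 in root salt 9 h (adjusted p = 0.00545), 1.75 ± 0.23 in leaf cold 9 h (adjusted p = 3.1e-06) and 1.85 ± 0.23 in leaf salt 27 h (adjusted p = 3.08e-06). In heated roots it was negative at 3 h as well (-0.98 ± 0.27, adjusted p = 0.0247).

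Spots 144700 and 145544, a second such pair, combined both signs within root. At 3 h spot 144700 had ratios of -2.18, -2.40 and -2.56 in cold roots, 1.43, 1.60 and 1.66 in salt-treated roots and 0.15, 0.54 and 0.42 in control roots. The 3 conditions did not overlap. The changes were -2.75 ± 0.38 in cold (adjusted p = 7.64e-06) and 1.19 ± 0.38 in salt (adjusted p = 0.0252), and the salt call was lost without salt replicate 2 or 3 or control replicate 1. After 9 h of cold the change was 0.20 ± 0.38 in root (adjusted p = 0.756) and 1.66 ± 0.29 in leaf (adjusted p = 9.68e-05). Spots 155673 and 156517 made another such pair, with positive changes in leaf cold (0.75 and 0.73 at 3 h, 0.93 and 1.13 at 9 h) and in leaf salt 9 h (1.08 and 1.24), all called. In leaf heat 27 h the same spots were negative (-1.0003 and -0.95). Of the 205 members 5 (2.44%) were called in none of the 15 comparisons of stress and control that the choice did not use, against 37.4% of all eligible spots.

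Gene names were available for few of the spots. The probe table paired 30 members with 1 gene symbol each, 10 genes in all, 2 members with several symbols and 173 with none. All 10 named genes are given here. Of them IPMK, LOC102577923, LOC102585108, LOC102601295 and TK lay outside the rule for named spots and were chosen after their values were seen. The tables used here give no function for symbols that begin with LOC unless a synonym is listed beside them.

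LOC102577434 had all of its 10 printed spots, from 5 sets of source clones, among the members. Its changes were -1.88 to -1.37 in root cold 9 h, and all 10 spots were called negative there. In root cold 3 h they ranged from -3.73 to -0.62 with 7 called, in leaf cold 9 h from -1.06 to -0.61 with 7 called, and in leaf salt 27 h from -1.13 to -0.77 with 7 called. Its spots did not behave alike. Spot 156765 had ratios at 3 h of -3.47, -3.64 and -3.18 in cold roots and 0.26, 0.14 and 0.48 in control roots, a change of -3.73 ± 0.47 (adjusted p = 2.1e-06). Spot 155534 had -1.06, -1.06 and -0.64 in cold roots and -0.03, 0.34 and 0.08 in control roots, a change of -1.05 ± 0.38 that missed the threshold (adjusted p = 0.0636). After 27 h of heat these 2 spots had changes of -3.30 and -1.60.

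LOC102591911, listed with the synonym isi1, was printed as 1 pair and both spots were members. An Arabidopsis gene of that name takes it from impaired sucrose induction. Spot 162813 had ratios at 3 h of -2.74, -3.47 and -3.64 in cold roots and 0.03, 0.06 and 0.20 in control roots. After 27 h of heat they were -3.18, -2.84 and -2.47, against -0.25, 0.21 and 0.18 in control roots, and for this spot the 3 heat arrays were close to each other. The cold change was -3.38 ± 0.39 at 3 h (adjusted p = 4.17e-07) and -1.44 ± 0.39 at 9 h (adjusted p = 0.00577). IPMK, which codes for inositol polyphosphate multikinase, an enzyme that adds phosphates to inositol phosphates, had 1 eligible spot of 2 printed. Its ratios at 3 h were -2.74, -3.32 and -3.32 in cold roots and -0.23, 0.10 and 0.37 in control roots, and after 27 h of heat -4.06, -2.56 and -2.56, against -0.53, -0.01 and 0.03 in control roots. Its cold change was called at 3 h (-3.20) and not at 9 h (-0.46, adjusted p = 0.468). Neither gene was called in root heat at 3 or 9 h.

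LOC102603839, listed with the synonyms psbP and OEE2, codes for the PsbP protein, a subunit of the oxygen-evolving complex of photosystem II. Its 4 eligible spots were all members. Spot 145613 had ratios at 9 h of -1.69, -1.60 and -1.22 in cold roots and -0.20, -0.12 and -0.27 in control roots, with no overlap, and a change of -1.31 ± 0.40 (adjusted p = 0.0149). All 4 spots were called in root cold 9 h (changes -1.31 to -1.20) and at all 3 times of leaf cold (-1.43 to -0.72). At 27 h of heat spot 145613 had -3.18, -0.69 and -1.22 in heated roots and -0.49, -0.07 and -0.06 in control roots, where replicate 1 was far below the other 2.

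LOC102585108 carries the synonym TPT, the chloroplast translocator that exchanges triose phosphate for phosphate. Of its 4 eligible spots 2 were members, with changes of -1.51 and -1.47 in root cold 27 h, and the weaker change of the other 2 was 0.00 and -0.16. The member spots were called in root salt 3 h (-1.20 and -1.17) and at all 3 times of leaf cold (-1.09 to -0.77).

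Genes of photosynthesis were looked up as a group, chosen after psbP and TPT were seen among the members. Of 5 such genes named by the tables (cab1, PSBR, PSBO, psbP and TPT, with 34 printed spots), cab1 and PSBO had no eligible spot and the others had 13, of which 6 were members. Members are 1.51% of all eligible spots, but the list was drawn up because of these 6, so the 2 shares cannot be compared. In root cold 9 h 5 of the 13 were called negative and none positive, where 11.9% and 13.7% of all tested spots were called. All 5 came from psbP and TPT, the genes that prompted the list, so they say nothing about the group. In leaf cold 27 h 10 were called negative and 1 positive, where 10.7% and 10.8% of all tested spots were called. PSBR, another photosystem II subunit, had 5 eligible spots and no member. Its spots ranged from -0.75 to 2.10 in root cold 27 h with a median of -0.67, and 2 were called negative and 1 positive. In leaf cold 27 h 4 of them were called negative and 1 positive (median -0.70, highest 2.02). In root heat 3 h and 9 h none of the 13 was called, where 3.24% and 2.07% of all tested spots were called negative. These are ratios within a tissue, so they give no level of leaf genes in root.

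The other pathway genes that the tables name gave no member. They were 14 genes for DnaJ, an XIP aquaporin, cell wall enzymes, glutamine synthetase, ribosomal proteins, a dehydrin and a LEA protein, protease inhibitors and a PR1 protein. They had 66 printed and 23 eligible spots, none of them in the set. Members are 1.51% of all eligible spots, so no member among 23 is close to that share and says nothing about these genes.

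The remaining named genes are given without a role. LOC102577458 had 2 eligible spots of 6 printed, both members, at -1.87 and -1.85 in root cold 27 h and -1.83 in root heat 27 h, and both were called in root cold 9 h (-1.26 and -1.25). LOC102577529 had 4 of 4 spots in the set, at -1.49 to -1.40 in cold and -1.42 to -1.25 in heat, and 3 were called in root salt 3 h. LOC102601295 had 2 eligible spots, both called in root cold 9 h (-1.02 and -0.95) and in leaf cold 9 h (-1.09 and -1.07). LOC102577923 had 2 of 4 eligible spots in the set, and 1 was called in root heat 3 h (-0.92, adjusted p = 0.0059). TK had 1 of 4, called in root cold 9 h (-1.33, adjusted p = 0.0009).

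**Figure D5:**
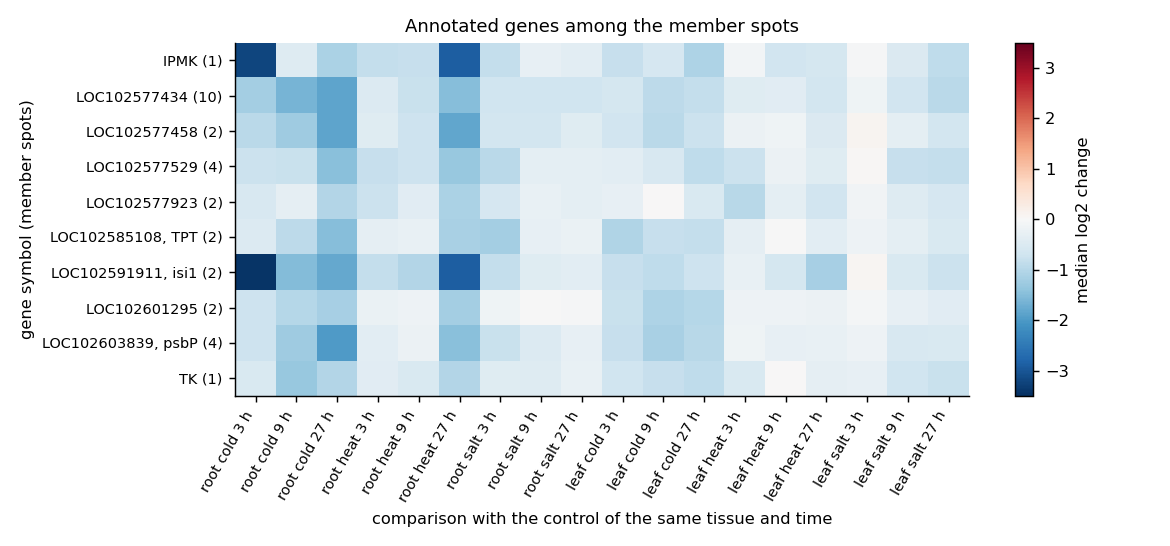
Median log2 change over the member spots of each named gene (rows, with the number of spots in brackets) in the 18 comparisons (columns), on a colour scale from blue (negative) to red (positive). IPMK and LOC102591911 are darkest in root cold 3 h, at -3.20 and -3.43, and in root heat 27 h, at -2.88 and -2.89.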

How the data were processed

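The authors deposited 1 table of log2 ratios with 32448 spots and 72 arrays. The submitters' processing notes name limma without a version or role, and the sources used here do not state the background correction or normalization. Column medians of the deposited log2 ratios were 0 to 0.014, and arrays had 15580 to 20545 values. Groups of 3 arrays limit the precision. No intensities were used here.

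The 205 members were chosen by the rule on deposited values. The members, lists and named spots were chosen with earlier results of these data known. Comparisons used limma 3.58.1 in R 4.3.3 (lmFit, eBayes) on all 36 arrays of a tissue in 12 groups, over spots with at least 2 values in every group (14866 in root, 15601 in leaf). Tissue differences used all 72 arrays and 13585 spots. P-values were adjusted by Benjamini-Hochberg over all tested spots, with a threshold of 0.05, and measure the spread between 3 independent experiments. Root cold and heat at 27 h chose the members and root salt at 27 h shares their controls, so limma's calls for the first 2 are given as a description only and salt at 27 h was not fitted as a comparison. The fit was tested on simulated data with independent noise on each array. That simulation cannot judge effects shared by same-numbered arrays or arrays of unequal width.

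Named spots were the 20 with 1 gene symbol and the lowest weaker change, the first 2 by that measure with a member partner, and per comparison up to 3 in each direction that passed the threshold with 1 sign in all 3 same-numbered differences. Spots listed to account for small counts of calls were chosen after their values were seen. Symbols came from the platform annotation (1630 spots with 1 symbol, 180 with several, 30638 with none) and synonyms from RefSeq. No list of RBCS genes was used, since those spots carry several symbols, so the tissue labels were not checked by markers.

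Duplicate spots were placed 844 or 1859 rows apart within each 2704 rows. All 905 annotated pairs share their source clones, and the 1485 pairs with an SD above 0.5 had a median correlation of 0.97. Per the labels each replicate number is 1 independent experiment with its own reference, so same-numbered arrays form pairs. The main tests, which gave the p-values and calls in the text, did not use this pairing. It entered only the same-numbered differences and the alternative fit with the number as a block. Deviations of same-numbered stress and control arrays correlated with r from -0.04 to 0.50 (median 0.20, above 0.1 in 43 of 54). A fit with the number as a block, quantile scaling, complete spots and leaving out single arrays were alternatives. Leaving the root 27 h arrays out of the fit and keeping only the members at or below -1 on the mean of heat replicates 2 and 3 were added after seeing the data.

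RNA extraction is given as a column kit in one label and as phenol or trizol in another.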

Additional observations from a re-analysis of the deposited data

Results flagged for a closer look

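The effect of cold on the members differed between 9 h and 3 h in root for 29 of the 205 spots by limma's test of the difference (adjusted p under 0.05), 3 of them more negative (1.46%, against 4.59% of all tested spots) and 26 less negative at 9 h (12.7%, against 8.47%). After quantile scaling 10 were left, and the less negative ones were 4.39% of the members, against 4.03% of all tested spots. The extremes were spot 148730, with a difference of -3.637 (adjusted p = 0.00131), and spot 152504, with 3.3347 (adjusted p = 1.72e-06). The effect of salt differed between these times for 2 spots, of which spot 151101 had a difference of 1.744 (adjusted p = 0.00927). Both were less negative at 9 h (0.976% of the members, against 0.565% of all tested spots).

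The effect of cold differed between root and leaf, over 3 and 9 h, for 39 spots, 38 of them more negative in root (18.5%, against 6.83% of all tested spots). The largest difference was -2.4677 at spot 148950 (adjusted p = 3.85e-06). The effect of salt differed between the tissues for 10 spots, all more negative in root (4.88%, against 0.662%), with -1.2453 at spot 151017 (adjusted p = 0.00643).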

How the results depend on the processing

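No change of direction was seen in the counts or named spots under any alternative run. Counts that moved by over 1.5 times did so as follows, and the causes were not tested. With the replicate block, members called in root heat were 29 at 3 h and 12 at 9 h, and the block moved no other count of calls by over 1.5 times. It kept 82 of 83 named spots past the threshold. With the root 27 h arrays left out of the fit these heat counts were 29 and 13, and root against leaf heat gave 1. Quantile scaling gave 35 and 54 in root heat at 3 and 9 h (51 negative and 3 positive at 9 h), 38 in root salt 9 h (36 negative and 2 positive), 10 in root cold 9 h minus 3 h, 1 in root salt 9 h minus 3 h, 43 and 98 in leaf cold at 9 and 27 h, 14, 2 and 37 in leaf heat at 3, 9 and 27 h, 23 in leaf salt 9 h and 3 in root against leaf heat. Under it 7.1% of all tested spots were called negative in root heat 9 h. Spots with a value on every array gave 2 in root salt 9 h, 0 in leaf salt 3 h and 19 in root against leaf cold; fewer spots are tested there.

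Leaving out single arrays, the rule gave 98 to 272 members. The calls ranged from 62 to 76 and 92 to 126 in root cold at 3 and 9 h, 5 to 27 and 0 to 6 in root heat, 38 to 72 and 2 to 7 in root salt, 20 to 107, 57 to 143 and 90 to 152 in leaf cold at 3, 9 and 27 h, 1 to 7, 0 to 0 and 0 to 12 in leaf heat, and 2 to 2, 11 to 60 and 65 to 102 in leaf salt. They ranged from 18 to 28, 0 to 0 and 1 to 3 for 9 h minus 3 h in cold, heat and salt, 34 to 70 and 41 to 90 for cold minus heat at 3 and 9 h, and 35 to 42, 0 to 0 and 5 to 12 for root minus leaf in cold, heat and salt. Member medians kept their sign in 286 of 293 settings. Of 654 leave-one-out values of named spots 112 fell below the threshold, and 17 of 83 under quantile scaling. The rule itself gave 137 members after quantile scaling (105 of them shared), 169 with medians of arrays, 206 with same-numbered differences, 142 with 3 values in each group and 300 with values asked for in the root 27 h groups alone. Of the members, 94 stay at or below -1 without root heat 27 h replicate 1. Their negative calls were 50 in root cold 3 h and 50 in 9 h, 7 and 1 in root heat, and 60 in leaf cold 27 h. These are 53.2%, 53.2%, 7.45%, 1.06% and 63.8% of the 94. Over all 205 members the shares were 42.0%, 64.9%, 6.83%, 2.44% and 69.3%. Over all tested spots they were 6.72%, 11.9%, 3.24%, 2.07% and 10.7%. The root heat 9 h share of the 94 rests on 1 spot and was close to the background. With 3 arrays a group and no intensities, small changes and signal over background could not be judged.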
